A study of Homo sapiens with 8 samples.

Results

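The NFAT genes NFATC1, NFATC2, NFATC3 and NFAT5 and the calcineurin regulator RCAN1 were followed across 4 treatments of KG1a, a human acute myeloid leukemia (AML) line of immature phenotype that is long established in culture. The 5 genes were found by symbol among 25168 genes in a table of read counts. They were chosen by measured values of the same libraries, since NFATC1 was already known to be much higher with TAK-981 than with vehicle. RNA sequencing was done after 48 h on cells given 5 µM TAK-981, on cells given 5 µM TAK-981 plus 1 µM venetoclax (the combination), on cells given 1 µM venetoclax, and on cells given the DMSO vehicle. TAK-981 blocks the SUMO-activating enzyme and so the attachment of the small protein SUMO to its targets, and venetoclax blocks BCL2, which holds back apoptosis. Each group held 2 libraries, 8 in all. The labels do not call them separate cultures, and every p-value here rests on library-to-library spread that could be technical.

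NFAT proteins are transcription factors that carry calcium signals to DNA. In resting cells NFATC1, NFATC2 and NFATC3 are phosphorylated and held in the cytoplasm. Calcium entry activates the phosphatase calcineurin through calmodulin, and dephosphorylated NFAT enters the nucleus, where it binds DNA with a GGAAA core, often beside AP-1. NFAT5 responds to osmotic stress and does not need calcineurin. RCAN1 binds and inhibits calcineurin and is itself induced by NFAT, from a start site inside the gene. NFATC1 is also known to be induced by NFAT in T cells and in bone-resorbing osteoclasts.

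Promoter sequences of the genes are shown because GGAAA is the core that NFAT proteins bind, and because NFATC1 and RCAN1 are each transcribed from several starts. Each window runs from 250 bases before to 50 bases after an annotated start, 300 bases in all, written 5′ to 3′ on the strand of the gene, from RefSeq on GRCh38.p14. Capitals mark GGAAA on either strand (TTTCC is the reverse strand). The NFATC1 windows were chr18:79395680-79395979 and chr18:79400049-79400348, both on the plus strand, with starts 4.369 kb apart.
NFATC1 first start: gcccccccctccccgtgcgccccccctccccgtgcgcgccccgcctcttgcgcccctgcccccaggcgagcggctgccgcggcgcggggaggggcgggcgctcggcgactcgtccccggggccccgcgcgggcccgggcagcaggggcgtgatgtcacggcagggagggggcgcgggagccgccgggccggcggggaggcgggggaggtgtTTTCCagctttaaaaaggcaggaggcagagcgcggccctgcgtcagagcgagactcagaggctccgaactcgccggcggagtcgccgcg
NFATC1 second start: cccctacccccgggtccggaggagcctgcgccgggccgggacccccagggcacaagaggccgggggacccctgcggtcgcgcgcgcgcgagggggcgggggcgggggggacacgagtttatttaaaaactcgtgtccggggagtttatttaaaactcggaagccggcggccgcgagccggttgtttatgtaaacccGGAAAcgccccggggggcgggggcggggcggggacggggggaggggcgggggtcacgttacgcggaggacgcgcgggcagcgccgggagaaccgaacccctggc
The NFATC2 window was chr20:51562790-51563089 on the minus strand.
NFATC2 first start: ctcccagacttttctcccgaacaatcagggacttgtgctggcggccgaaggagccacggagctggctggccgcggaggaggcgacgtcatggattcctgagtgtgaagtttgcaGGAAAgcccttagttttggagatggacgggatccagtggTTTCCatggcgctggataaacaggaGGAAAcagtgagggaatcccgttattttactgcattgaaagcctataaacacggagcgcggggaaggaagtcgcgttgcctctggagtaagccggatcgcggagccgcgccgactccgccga
The RCAN1 windows were chr21:34615064-34615363 and chr21:34526773-34527072, both on the minus strand, the outermost of 6 listed starts and one inside the gene, 88.29 kb downstream of it. The other 4 starts, 0.667, 1.27, 89.65 and 90.48 kb downstream of the outermost, are not printed.
RCAN1 outermost start: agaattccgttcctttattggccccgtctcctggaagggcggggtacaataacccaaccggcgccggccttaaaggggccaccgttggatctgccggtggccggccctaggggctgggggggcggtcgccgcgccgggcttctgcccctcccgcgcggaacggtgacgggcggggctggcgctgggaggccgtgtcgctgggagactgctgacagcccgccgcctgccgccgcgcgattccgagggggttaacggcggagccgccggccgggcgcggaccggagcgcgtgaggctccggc
RCAN1 internal start: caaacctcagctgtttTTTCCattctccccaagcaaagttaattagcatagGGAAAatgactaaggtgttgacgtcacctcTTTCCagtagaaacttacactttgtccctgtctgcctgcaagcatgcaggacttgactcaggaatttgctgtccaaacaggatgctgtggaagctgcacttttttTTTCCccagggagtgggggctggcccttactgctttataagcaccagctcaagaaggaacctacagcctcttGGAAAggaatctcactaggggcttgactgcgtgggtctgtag

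Both NFATC1 windows held 1 GGAAA, at positions -39 and -54 from the start, and 61.2% of all 35116 RefSeq windows held at least 1. They were rich in CG dinucleotides, with 43 and 41 against a median of 14 over all windows, and 4.98% and 6.69% of windows held at least as many. The NFATC2 window held 3 GGAAA, a number reached by 9.94% of windows. The internal RCAN1 window held 5, a number reached by 0.74% of windows, while the outermost RCAN1 window and those 0.667 and 1.27 kb downstream held none and those at 89.65 and 90.48 kb held 1 each. The internal RCAN1 window also held 1 TGANTCA and 1 TGACGTCA, the AP-1 and CRE type motifs searched on both strands, which 7.71% and 1.85% of all windows held. The windows of NFATC3 and of the second NFATC2 start held no GGAAA. These matches are letters in a window and not sites of binding, and counts summed over a gene do not tell the starts apart. NFAT5 was not matched in the promoter table.

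All 5 genes passed the filter on low counts, as did 12843 genes in all. Library totals were 13204588 to 26304900 reads counted to genes. The venetoclax libraries differed more between replicates than the others, with a median absolute log2 difference over genes of 0.297, against 0.109 with TAK-981, 0.125 with the combination and 0.12 with vehicle. CD34 and the other 7 immature hematopoietic markers summed to 3629 to 3733 CPM (reads scaled by library size) with TAK-981, 3286 to 3366 with the combination, 3096 to 3871 with venetoclax and 3098 to 3259 with vehicle. Over the 8 libraries CD34 averaged 1204 CPM, SPN 863.9, PTPRC 639.2, RUNX1 357 and MYB 339.8. CD7 averaged 12.03 CPM, KIT 1.013 and FLT3 0.04587, so the sum does not by itself identify the line. The 5 osteoclast markers summed to 3.438 to 3.476 CPM with TAK-981, 2.378 to 2.549 with the combination, 1.447 to 2.26 with venetoclax and 1.793 to 3.648 with vehicle, and ACP5, CALCR and DCSTAMP had no count in any library. The 8 T cell markers summed to 45.68 to 46.79 CPM with TAK-981, 23.87 to 27.96 with the combination, 30.74 to 42.65 with venetoclax and 37.39 to 50.15 with vehicle, with no count of CD4 or CD8B in any library. CD3E, a T cell receptor chain, fell in TAK-981 against vehicle (-0.82, adjusted p = 0.0178 by edgeR) and in the combination against venetoclax (-0.96, adjusted p = 0.00417). CD3D, the other T cell marker tested, was 0.37 higher in TAK-981 against vehicle (adjusted p = 0.303). It averaged 19.45 CPM with the combination against 24.91 with venetoclax. The 5 endothelial markers summed to 22.13 to 23.96 CPM with TAK-981, 19.02 to 24.54 with the combination, 13.52 to 15.23 with venetoclax and 20.57 to 21.37 with vehicle, with no count of CDH5 in any library. Among them TEK, a receptor kinase gene, rose in TAK-981 against vehicle (2.93, adjusted p = 0.000927) and in the combination against venetoclax (2.72, adjusted p = 0.000552). TEK averaged 5.633 CPM with TAK-981 and 6.712 with the combination, against 0.9281 with venetoclax and 0.7316 with vehicle. The other tested endothelial markers, PECAM1 and VWF, were at -0.24 and -0.095 in TAK-981 against vehicle (adjusted p = 0.362 and 0.891). In the combination against venetoclax 2 of the 3 tested were called higher (66.7%, where 17.6% of all genes were called higher). B cell and monocyte markers summed to at most 6.117 and 2.781 CPM in any library. The part of such markers in the results was not tested.

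NFATC1 differed most of the 5 genes between libraries with and without TAK-981. It had 2036 and 1930 reads in the TAK-981 libraries and 1589 and 1132 in the combination libraries, against 10 and 16 in the venetoclax libraries and 43 and 33 in the vehicle libraries. As CPM these were 87.5 and 103.2 with TAK-981, 72.7 and 82.4 with the combination, 0.762 and 0.623 with venetoclax, and 1.87 and 1.41 with vehicle. Every library with TAK-981, alone or combined, lay above every library without it. The mean was 95.4 ± 11.1 CPM with TAK-981, 77.5 ± 6.92 with the combination, 0.693 ± 0.0977 with venetoclax and 1.64 ± 0.325 with vehicle (SD, n = 2 each). The order of the groups was thus TAK-981, combination, vehicle and venetoclax, with no overlap between neighbours. In bulk RNA, fewer cells that express a gene and less RNA per cell cannot be told apart. NFATC1 lies on chromosome 18 (79395856 to 79529325, hg38, plus strand, 9.053 kb of exons), and short noncoding models overlap it on both strands. Whether counting used the strand is not given in the sources used here.

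**Figure D1:**
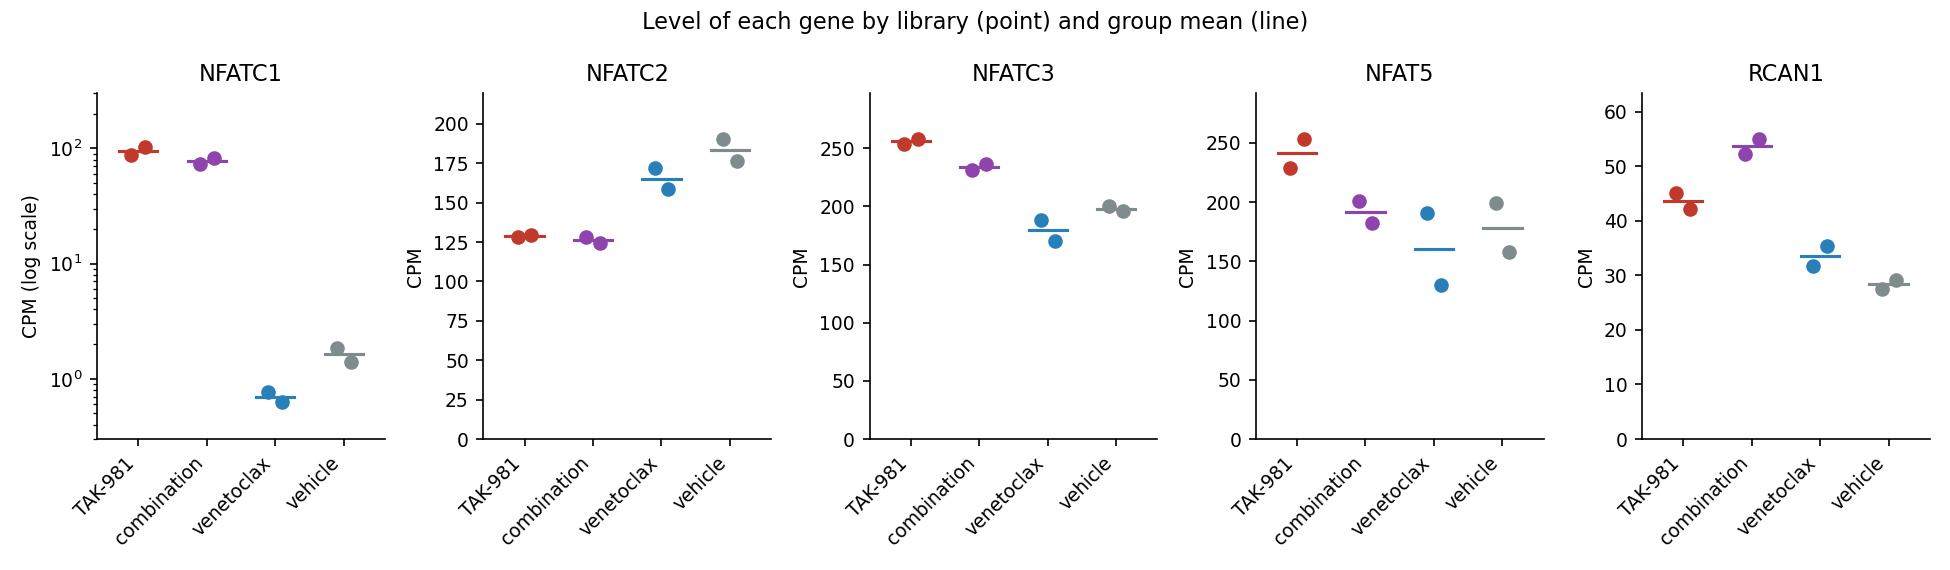
Level of each gene in CPM by library (points) with the group mean (lines), for TAK-981, combination, venetoclax and vehicle, 2 libraries each. The NFATC1 axis is logarithmic and the others start at 0. NFATC1 lies between 72.7 and 103.2 CPM in the 4 libraries with TAK-981 and below 2 CPM in the other 4.

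The NFAT partners of NFATC1 were expressed in all groups. NFATC2, the first NFAT protein purified from T cells, had 128.0 and 129.5 CPM with TAK-981 and 127.9 and 124.2 with the combination, against 171.9 and 158.5 with venetoclax and 190.7 and 176.3 with vehicle. Both groups with TAK-981 were below both groups without it, with no overlap. NFATC3 had 253.6 and 258.3 CPM with TAK-981 and 230.9 and 236.7 with the combination, against 188.6 and 170.4 with venetoclax and 200.2 and 195.9 with vehicle. Both groups with TAK-981 were above both groups without it, with the TAK-981 libraries highest and the venetoclax libraries lowest.

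NFAT5 had 228.7 and 253.6 CPM with TAK-981, 200.9 and 182.3 with the combination, 190.5 and 129.6 with venetoclax, and 199.0 and 157.7 with vehicle. Only the TAK-981 libraries stood apart, and the other 3 groups overlapped. RCAN1 had 45 and 42.1 CPM with TAK-981 and 52.2 and 55.1 with the combination, against 31.7 and 35.5 with venetoclax and 27.6 and 29.2 with vehicle. The groups of RCAN1 did not overlap, and their order was combination, TAK-981, venetoclax and vehicle. NFATC2 lies on chromosome 20 (51386957 to 51562831, minus), NFATC3 and NFAT5 on chromosome 16 (68077340 to 68229259 and 69565094 to 69704666, both plus), and RCAN1 on chromosome 21 (34513142 to 34615142, minus). The NFATC3 model in the table starts within DUS2 on the same strand, so its count may include DUS2 reads.

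Levels can be compared between genes per length. Without TAK-981 nearly all calcineurin-dependent NFAT transcripts came from NFATC2 and NFATC3. In CPM per kb of exons, NFATC1 averaged 10.5 with TAK-981, 8.57 with the combination, 0.0765 with venetoclax and 0.181 with vehicle. NFATC1 made up 18.2% and 20.5% of the summed NFATC1, NFATC2 and NFATC3 level per kb in the TAK-981 libraries and 16.4% and 18.1% in the combination libraries, against 0.202% and 0.181% with venetoclax and 0.455% and 0.361% with vehicle. NFATC2 held 29.1% and 28.1% of that sum with TAK-981 and 31.5% and 29.9% with the combination, against 49.8% and 50.3% with venetoclax and 50.8% and 49.4% with vehicle. The NFATC3 share moved little, at 52.7% and 51.3% with TAK-981, 52.1% and 52% with the combination, 50% and 49.5% with venetoclax, and 48.8% and 50.2% with vehicle. The sum itself was 53.17 and 55.59 CPM per kb with TAK-981 and 49.01 and 50.28 with the combination, against 41.70 and 38.06 with venetoclax and 45.37 and 43.11 with vehicle. Among the tested genes ranked by level per length, NFATC1 stood at percentile 65 with TAK-981 and 59.2 with the combination, against 4.18 with venetoclax and 6.84 with vehicle.

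**Figure D2:**
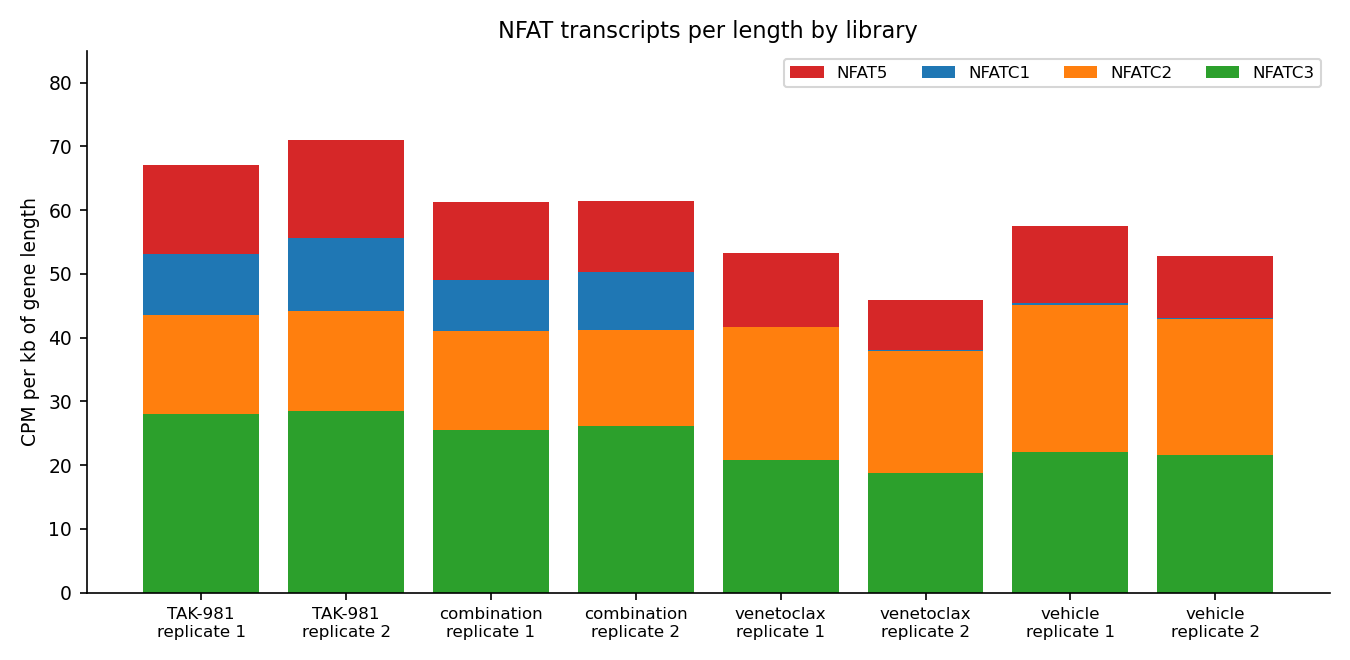
Summed level per kb of exons of NFATC3, NFATC2, NFATC1 and NFAT5 in each of the 8 libraries, as stacked bars starting at 0. The NFATC1 segment is visible in the 4 libraries with TAK-981, where it makes up 16.4% to 20.5% of the NFATC1 to NFATC3 sum, and is barely visible in the other 4.

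Comparing TAK-981 with vehicle describes the contrast on which the genes were chosen, so no test is given. The log2 fold changes were 5.86 for NFATC1 (58.0-fold), -0.51 for NFATC2, 0.37 for NFATC3, 0.43 for NFAT5 and 0.62 for RCAN1 (1.54-fold). The libraries of the 2 groups did not overlap for any of the 5. How large a share of all genes separates in this way was not computed. With 2 libraries per group such separation carries little weight. NFATC1 had the 34th highest fold change of 12843 genes. In this comparison edgeR called 12.2% of all genes at an adjusted p below 0.05, 5.98% higher and 6.18% lower.

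The combination compared with venetoclax shows what TAK-981 did on a venetoclax background, in libraries apart from those 4. NFATC1 was 114-fold higher in the combination, a log2 fold change of 6.83 and the 29th highest of all genes. It was chosen for its rise with TAK-981 when the combination libraries were already known to be high, so this value is a description with no test. Of the 4 other genes, RCAN1 and NFATC3 rose and NFATC2 fell, where 39.6% of all genes were called, 17.6% higher and 22% lower. RCAN1 rose by 0.67 (SE 0.111, 95% interval 0.42 to 0.92, adjusted p = 0.00208 by edgeR's quasi-likelihood test), and both combination libraries were above both venetoclax libraries.

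NFATC2 fell by 0.39 on the log2 scale in the combination relative to venetoclax (95% interval -0.60 to -0.18, adjusted p = 0.0106 by edgeR). NFATC3 rose by 0.38 (95% interval 0.17 to 0.59, adjusted p = 0.0114). Neither call held when edgeR was fitted to the 4 libraries alone (adjusted p = 0.0993 for NFATC2 and 0.0618 for NFATC3). Without combination replicate 1 NFATC2 was at -0.42 (adjusted p = 0.0523) and NFATC3 at 0.39 (0.0588), and without combination replicate 2 NFATC2 was at -0.37 (0.08) and NFATC3 at 0.36 (0.0809). Over 15 alternatives the adjusted p ran from 0.000267 to 0.0993 for NFATC2 and from 0.000469 to 0.0809 for NFATC3. NFAT5 differed by 0.26 (95% interval -0.14 to 0.67, adjusted p = 0.272), and its groups overlapped. The NFAT5 value rests on 1 library, being 0.56 without venetoclax replicate 1 (adjusted p = 0.0054) and 0.00015 without venetoclax replicate 2 (range of adjusted p 0.0054 to 1).

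**Figure D3:**
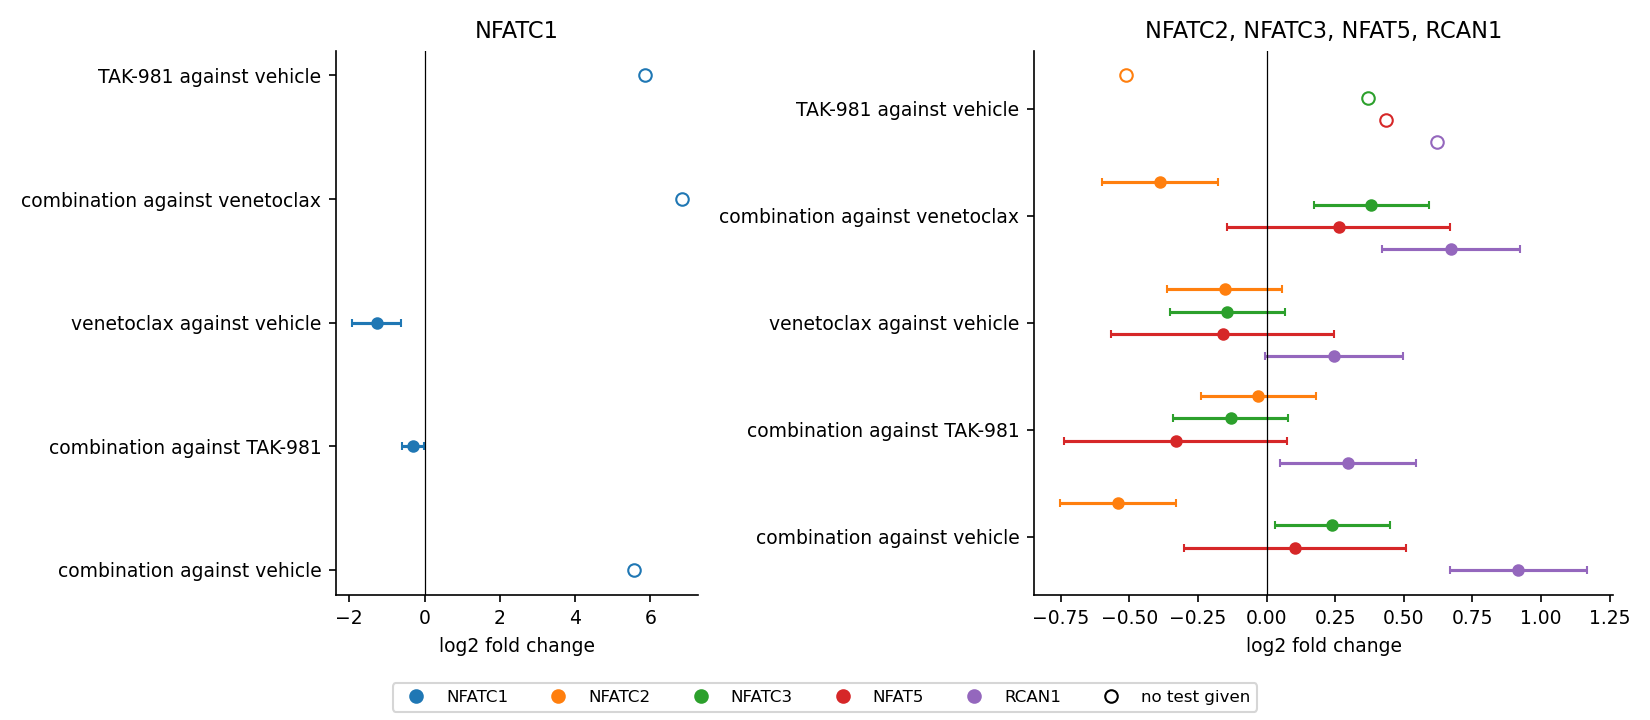
Log2 fold change of each gene in 5 comparisons, with 95% intervals from edgeR (bars) where a test is given, and open circles without intervals where none is given. NFATC1 has its own axis. NFATC1 lies at 5.86, 6.83 and 5.56 where TAK-981 is added, and NFATC2 is the gene below 0 in those 3 comparisons.

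In venetoclax against vehicle NFATC1 fell, the 1 call of 5 where 20.8% of all genes were called, 11.4% higher and 9.44% lower. NFATC1 fell by 1.27 on the log2 scale (SE 0.285, 95% interval -1.92 to -0.63, adjusted p = 0.0156 by edgeR), on 10 and 16 reads with venetoclax against 43 and 33 with vehicle. The vehicle libraries also entered the contrast on which NFATC1 was chosen, so its p-values here are not independent of that choice. The call was lost with limma-voom (adjusted p = 0.0666), in the 4 libraries alone (0.103), without venetoclax replicate 2 (0.072, log2 fold change -1.10) and without vehicle replicate 1 (0.111, -1.06), and its adjusted p over 15 alternatives ran from 0.000411 to 0.111. The intervals of the others included 0. They were -0.36 to 0.06 for NFATC2, -0.35 to 0.07 for NFATC3, -0.57 to 0.25 for NFAT5 and -0.0057 to 0.50 for RCAN1. RCAN1 differed by 0.25 with an adjusted p of 0.146 by edgeR, and passed without venetoclax replicate 1 (0.32, adjusted p = 0.0296, range 0.0296 to 0.44). NFAT5 differed by -0.16, and its value rests on single libraries, being -0.46 without venetoclax replicate 1 (adjusted p = 0.0202, range 0.0202 to 0.973), 0.10 without venetoclax replicate 2 and 0.02 without vehicle replicate 1.

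Adding venetoclax to TAK-981 changed none of the 5 genes past the threshold, while 8.8% of all genes were called, 2.76% higher and 6.03% lower. For NFATC1 the log2 fold change was -0.30 (SE 0.131, 95% interval -0.60 to -0.0027, adjusted p = 0.199 by edgeR). For RCAN1 it was 0.30 (SE 0.11, 95% interval 0.05 to 0.55, adjusted p = 0.131), for NFAT5 -0.33 (interval -0.74 to 0.07, adjusted p = 0.296), for NFATC3 -0.13 (interval -0.34 to 0.08) and for NFATC2 -0.03 (interval -0.24 to 0.18). In all 5 genes the libraries of the groups did not overlap, NFATC2 at -0.03 included. The share of all genes without overlap was not computed, and with 2 libraries per group such separation carries little weight. NFATC1 and RCAN1 were the 2 genes with an unadjusted p below 0.05, and DESeq2 and limma-voom also called 0 of the 5. The TAK-981 libraries also entered the contrast on which NFATC1 was chosen, so its p-values here are not independent of that choice. When both venetoclax libraries were left out, edgeR called 3, NFATC1 (adjusted p = 0.0333), NFAT5 (0.0361) and RCAN1 (0.0178), and it also called these 3 when either venetoclax library was left out. Over 16 alternatives the adjusted p ran from 0.0264 to 0.676 for NFATC1, from 0.00557 to 0.666 for NFAT5 and from 0.0178 to 0.526 for RCAN1.

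The combination was also compared with vehicle, a comparison that shares its vehicle libraries with the 2 single-drug comparisons above. There 2 of the 4 tested genes passed, where 27.9% of all genes were called, 12.8% higher and 15.1% lower. RCAN1 rose 1.89-fold, a log2 fold change of 0.92 (SE 0.111, 95% interval 0.67 to 1.17, adjusted p = 0.000612 by edgeR). NFATC2 fell by 0.54 (SE 0.0933, 95% interval -0.75 to -0.33, adjusted p = 0.0031). NFATC3 was 0.24 higher (adjusted p = 0.0861), and it passed when both venetoclax libraries were left out (adjusted p = 0.00722, range over 16 alternatives 0.00722 to 0.308) and when either was (0.00832 without replicate 1, 0.00942 without replicate 2). NFAT5 was 0.10 higher (interval -0.30 to 0.51, adjusted p = 0.709). NFATC1 was 47.2-fold higher, 5.56 on the log2 scale and the 47th highest of all genes, given with no test because it had been chosen on these values.

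Whether TAK-981 acted differently with venetoclax than without was read from the interaction, the log2 fold change with venetoclax less that without. It contains the comparison on which the genes were chosen, so its values are given with no test. They were 0.98 for NFATC1, 0.12 for NFATC2, 0.01 for NFATC3, -0.17 for NFAT5 and 0.05 for RCAN1. Over all 12843 genes edgeR called 4 (0.0311%, all 4 higher and 0% lower). That count rested on the tool, the filter and the venetoclax libraries, being 300 with DESeq2, 1098 with no filter on low counts, 713 without venetoclax replicate 1 and 4440 without venetoclax replicate 2. In arithmetic terms NFATC1 was at -1.27 in venetoclax against vehicle and at -0.30 in the combination against TAK-981.

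Across the 8 libraries NFATC1 ran with NFATC3 (Pearson r = 0.959 on log2 CPM) and RCAN1 (0.857) and against NFATC2 (-0.91), while NFATC2 ran against RCAN1 (-0.964). These values describe 8 libraries that share 4 treatments and are not independent. The 5 genes whose pattern was most like that of NFATC1, of 9906 candidates, were ZNF467 (r = 0.9983), TRIM8 (0.9976), SPTLC2 (0.996), NAV1 (0.9958) and JUND (0.9952). ZNF467 is a zinc finger gene, TRIM8 encodes a ubiquitin ligase, SPTLC2 a subunit of the enzyme that starts sphingolipid synthesis, NAV1 a neuron navigator and JUND an AP-1 subunit. ZNF467 had 5.243 and 5.775 CPM with TAK-981 and 4.938 and 5.316 with the combination, against 0.2285 and 0.1559 with venetoclax and 0.3909 and 0.4268 with vehicle. TRIM8 had 97.64 and 103.6 CPM with TAK-981 and 81.02 and 94.16 with the combination, against 22.39 and 21.27 with venetoclax and 31.36 and 27.66 with vehicle. By group mean both followed the order of NFATC1, at smaller differences, and for ZNF467 the TAK-981 and combination libraries overlapped.

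Genes most like the others were picked the same way. Nearest to NFATC2 were NFRKB (r = 0.9885), PAM (0.9834) and IGSF11 (0.9829). Nearest to NFATC3 were PTPRN2 (0.9941), MYO7A (0.9903) and SYNJ2 (0.99). Nearest to NFAT5 were PPARD (0.9829), BMPR2 (0.9804) and LYST (0.9799), and nearest to RCAN1 were ZC3H10 (0.9904), ETS2 (0.9877) and ZNF879 (0.9859). ETS2, a transcription factor gene on the same chromosome as RCAN1, had 215.9 and 200.9 CPM with TAK-981 and 250.3 and 244.4 with the combination, against 145.8 and 154.6 with venetoclax and 134.4 and 131.3 with vehicle, the order of groups seen for RCAN1.

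The genes beside NFATC1 moved far less than NFATC1 did. ATP9B, a phospholipid-transporting ATPase gene 17.57 kb away, was 0.48 higher on the log2 scale in the combination than with venetoclax (SE 0.119, adjusted p = 0.0118 by edgeR) and 0.33 higher with TAK-981 than with vehicle (adjusted p = 0.106). CTDP1, which encodes a phosphatase of RNA polymerase II, lies 150.5 kb on the other side and was 0.42 higher in the combination than with venetoclax (adjusted p = 0.0369) and 0.29 higher with TAK-981 than with vehicle (0.204). PQLC1 was 1.12 higher in the combination than with venetoclax (SE 0.249, adjusted p = 0.00756) and 0.67 higher with TAK-981 than with vehicle (0.112). The ATP9B call was lost without either combination library and in the 4 libraries alone, the CTDP1 call in 9 of 15 alternatives, and the PQLC1 call without combination replicate 2. In TAK-981 against vehicle, ATP9B, PQLC1 and TXNL4A (0.24) passed in the fits without venetoclax replicate 1, without venetoclax replicate 2, without both and in the 4 libraries alone, PQLC1 also with no filter on low counts. TXNL4A, ZNF236 and MBP did not pass in either comparison (-0.30, 0.17 and 0.08 in the combination against venetoclax).

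**Figure D4:**
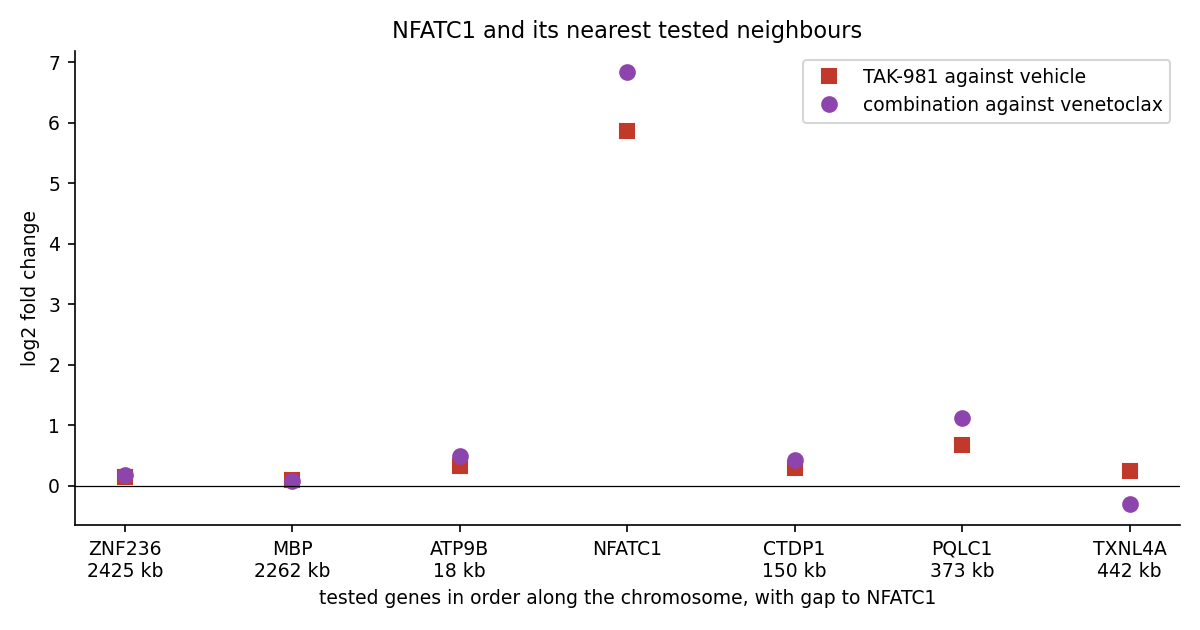
Log2 fold change of NFATC1 and its 3 nearest tested genes on each side, in order along the chromosome with the gap to NFATC1 under each name, for TAK-981 against vehicle (squares) and the combination against venetoclax (circles). NFATC1 lies at 5.86 and 6.83, and no neighbour is above 1.12.

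The calcium and calcineurin pathway around the genes was read from 11 lists, with 81 tested genes of 122 in the table. In TAK-981 against vehicle, 9 of the 81 rose and 2 fell (13.6%, against 12.2% of all genes). In the combination against venetoclax, 21 rose and 17 fell (46.9%, against 39.6%). With venetoclax against vehicle, 7 rose and 14 fell (25.9%, against 20.8%), with the combination against TAK-981, 2 rose and 10 fell (14.8%, against 8.8%), and with the combination against vehicle, 13 rose and 15 fell (34.6%, against 27.9%). The median log2 fold change of the 81 genes was 0.0604 in TAK-981 against vehicle, 0.115 in the combination against venetoclax and -0.167 in venetoclax against vehicle, where the medians over all genes were 0.00149, -0.0215 and 0. The counts depended on single libraries. In the combination against venetoclax they ran from 20 without combination replicate 2 to 50 without venetoclax replicate 2, and in TAK-981 against vehicle from 4 without TAK-981 replicate 2 to 32 in the 4 libraries alone. Of the 38 calls in the combination against venetoclax 19 held in every alternative run, of the 11 in TAK-981 against vehicle 3 did (FCER1G, JUND and SGK1), of the 28 in the combination against vehicle 13 did, of the 21 in venetoclax against vehicle only CD69 did, and of the 12 in the combination against TAK-981 none did.

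Among the 4 tested calcineurin subunits, PPP3CA, the main catalytic subunit, was lowest in the combination. It averaged 149 CPM there, against 222.5 with TAK-981, 234.1 with venetoclax and 240.7 with vehicle. It fell by 0.65 against venetoclax (SE 0.0931, adjusted p = 0.00113 by edgeR), by 0.58 against TAK-981 (adjusted p = 0.00805) and by 0.69 against vehicle (adjusted p = 0.000954). The calls against venetoclax and vehicle held in every alternative run, and the call against TAK-981 was lost without any 1 of the 4 libraries compared. PPP3CB, the other common catalytic subunit, fell by 0.43 in the combination against TAK-981 (adjusted p = 0.0375), and PPP3R1, the regulatory subunit, fell by 0.41 against vehicle (adjusted p = 0.0494). Both of these calls were lost when a TAK-981, combination or vehicle library was left out. No subunit passed in TAK-981 against vehicle or in venetoclax against vehicle.

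Of 11 tested calcineurin regulators and binding proteins other than RCAN1, 1 rose and 6 fell in the combination against venetoclax (63.6%, against 39.6% of all genes). CALM2, which encodes the calcium sensor calmodulin, fell by 0.61 to 405.5 CPM in the combination, against 619.8 CPM with venetoclax (adjusted p = 0.00475 by edgeR). AKAP5 (-0.78, adjusted p = 0.00268) and AKAP1 (-0.60, adjusted p = 0.00194), genes of anchoring proteins, also fell. FKBP1A, the FK506 binding protein, rose by 0.61 (adjusted p = 0.00872). With venetoclax against vehicle 4 rose and 1 fell (45.5%, against 20.8% of all genes). AKAP5 (0.96), AKAP1 (0.47) and CALM3 (0.46) were among the 4 that rose. In TAK-981 against vehicle FKBP1A (0.52, adjusted p = 0.0424) and RCAN3, a relative of RCAN1 (1.01, adjusted p = 0.0481), were the 2 that rose. That was 18.2%, against 12.2% of all genes. RCAN3 averaged 3.339 CPM with TAK-981 against 1.655 CPM with vehicle. The falls of CALM2, AKAP5 and AKAP1 in the combination against venetoclax held in every alternative run, and each other call named here was lost when some single library was left out or, for AKAP5 with venetoclax, in the 4 libraries alone.

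Of 12 NFAT kinases, which return NFAT to the cytoplasm, none passed in TAK-981 against vehicle, where 12.2% of all genes were called. In the combination against venetoclax CSNK1E (0.79) and CSNK1D (0.56) rose and GSK3A fell by 0.31 (adjusted p = 0.0148, 0.0214 and 0.0402 by edgeR). That was 25% of the 12, against 39.6% of all genes. Each call was lost without combination replicate 2 and in the 4 libraries alone, those of CSNK1D and GSK3A also without combination replicate 1. The GSK3A call was lost in 12 of 15 alternatives, RLE scaling and DESeq2 among them. Of 11 tested genes of calcium entry and release, PLCG1, which makes the messenger that opens calcium stores, rose in TAK-981 against vehicle (0.55, adjusted p = 0.0136) and in the combination against venetoclax (0.91, SE 0.113, adjusted p = 0.000642). It averaged 150.7 CPM with TAK-981 and 166.8 with the combination, against 88.96 with venetoclax and 102.6 with vehicle. ORAI3, a calcium channel gene, and PLCG2 rose in the combination against venetoclax by 1.13 and 2.91, PLCG2 at 33 and 35 reads in the combination against 3 and 7 with venetoclax, and STIM1, a calcium store sensor, rose by 0.38. STIM2, its relative, and ITPR2, a calcium release channel gene, fell by 0.77 and 0.53 (adjusted p = 0.0169 and 0.016). There 4 of the 11 rose and 2 fell (54.5%, against 39.6% of all genes). Of 6 tested immune receptor signalling genes, 4 rose and 2 fell in the combination against venetoclax (100%, against 39.6% of all genes). VAV1 (0.96), BTK (2.11) and FCER1G (1.92) were among the rises, and SYK fell by 0.72. In TAK-981 against vehicle FCER1G (3.21) and VAV1 (0.60) rose and SYK fell by 0.78 (50%, against 12.2% of all genes). FCER1G had 106 and 103 reads with TAK-981, 75 and 57 with the combination, 15 and 23 with venetoclax, and 8 and 17 with vehicle. BTK had 125 and 104 reads with the combination against 20 and 39 with venetoclax. In the combination against venetoclax the calls of PLCG1, PLCG2, ORAI3, VAV1, BTK, FCER1G and SYK held in every alternative run. Those of STIM1, STIM2 and ITPR2 were lost without either combination library and in the 4 libraries alone. In TAK-981 against vehicle FCER1G held in all, and SYK was lost only without TAK-981 replicate 2. PLCG1 was lost without either TAK-981 library and without vehicle replicate 2. VAV1 was lost when any TAK-981, combination or vehicle library was left out.

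**Figure D5:**
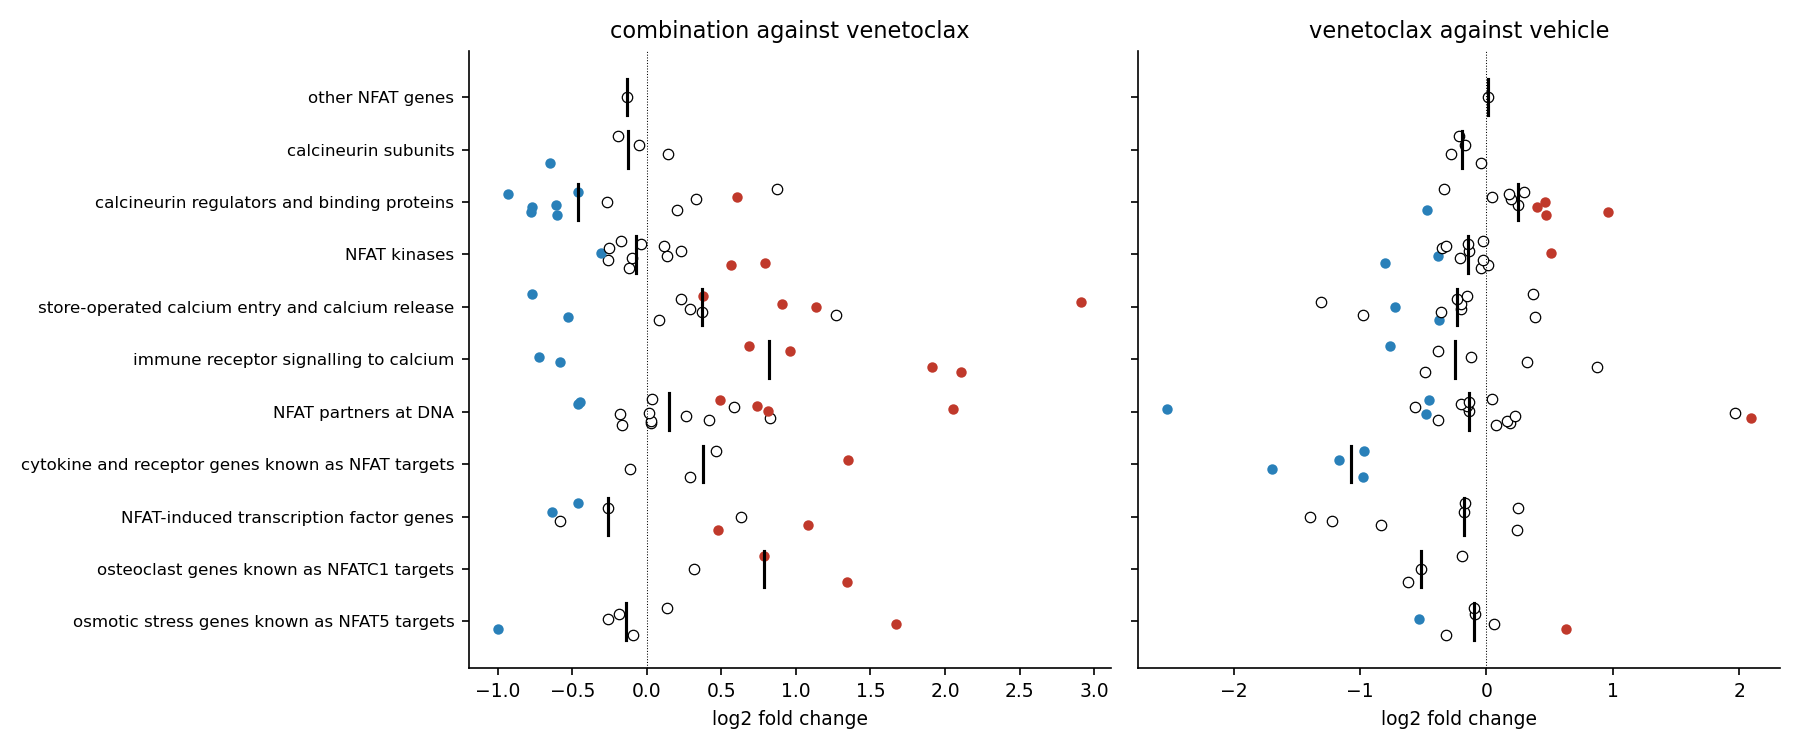
Log2 fold change of each tested gene of 11 pathway lists in the combination against venetoclax (left) and in venetoclax against vehicle (right), on separate axes. Red points are called higher, blue points are called lower, open points are not called, and vertical bars are list medians. In the left panel 21 of 81 genes are called higher and 17 lower, and in the right panel 7 and 14.

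Among 16 tested partners of NFAT at DNA, JUND and GATA2 rose with TAK-981 on both backgrounds, the 2 called in TAK-981 against vehicle (12.5%, against 12.2% of all genes). JUND averaged 125.7 CPM with TAK-981 and 115.6 with the combination, against 69.28 with venetoclax and 76.91 with vehicle. It rose by 0.71 in TAK-981 against vehicle (adjusted p = 0.00164 by edgeR) and by 0.74 in the combination against venetoclax (adjusted p = 0.000634). GATA2, a hematopoietic transcription factor, rose by 0.77 in TAK-981 against vehicle (adjusted p = 0.00385) and by 0.81 in the combination against venetoclax (adjusted p = 0.00122). JUND held in every alternative run in both comparisons, and GATA2 was lost only without vehicle replicate 2 in TAK-981 against vehicle (log2 fold change 0.72). Of the 16, 4 rose and 2 fell in the combination against venetoclax (37.5%, against 39.6%). The falls were MEF2A (-0.46, adjusted p = 0.022) and MEF2C (-0.45, adjusted p = 0.0414). Both were lost without either combination library and in the 4 libraries alone, MEF2A also without TAK-981 replicate 2. The MEF2C call was lost in 10 of 15 alternatives, RLE scaling among them. JUN, another AP-1 subunit, fell by 2.53 with venetoclax against vehicle (adjusted p = 0.0104), on 1 and 11 reads with venetoclax against 37 and 45 with vehicle. The JUN call was lost without either vehicle library and in the 4 libraries alone.

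Genes known as targets of NFAT were tested where they were expressed. Of 19 cytokine and receptor targets 4 were tested, and IL2, IL4, CTLA4 and PDCD1 had no count in any library. CD69, an early activation marker, averaged 414.3 CPM with TAK-981, 198.7 with the combination, 162.6 with venetoclax and 319.6 with vehicle. All 4 tested targets fell with venetoclax against vehicle, with log2 fold changes of -0.98 for CD69 (adjusted p = 0.00444 by edgeR), -1.70 for CXCL8 (0.0221), -0.97 for PTGS2 (0.0221) and -1.17 for HAVCR2 (0.0301), where 9.44% of all genes fell. None passed in TAK-981 against vehicle, and HAVCR2 rose by 1.35 in the combination against venetoclax (adjusted p = 0.00994), a call lost without combination replicate 2. With venetoclax against vehicle CD69 held in every alternative run, and the other 3 were lost without either vehicle library and in the 4 libraries alone, where CD69 was the 1 pathway gene called. Of 7 tested transcription factor genes induced by NFAT, IKZF1 fell (-0.60, adjusted p = 0.00689) and BATF rose (0.57, adjusted p = 0.0314) in TAK-981 against vehicle, and both calls were lost without any 1 of the 4 libraries compared. IKZF1 also fell in the combination against venetoclax (-0.64, adjusted p = 0.00203) and against vehicle (-0.82, adjusted p = 0.000784), calls that held in every alternative run.

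Of 10 osteoclast genes known as NFATC1 targets 3 were tested. CLCN7, a lysosomal chloride transporter gene, and ITGB3, an integrin chain gene, rose in the combination against venetoclax by 1.34 and 0.79 (adjusted p = 0.00611 and 0.0179 by edgeR), and none of the 3 passed in TAK-981 against vehicle. CLCN7 held in every alternative run. ITGB3 was lost without combination replicate 2, without venetoclax replicate 1 and in the 4 libraries alone. Of 6 tested osmotic stress genes known as NFAT5 targets, 1 was called in TAK-981 against vehicle (16.7%, against 12.2% of all genes). That was SGK1, a kinase gene, which rose by 1.59 (adjusted p = 0.00195), while 5 were not called and the list median was -0.187. In the combination against venetoclax 1 rose and 1 fell (33.3%, against 39.6%), and SGK1 rose by 1.67 (adjusted p = 0.000742). SGK1 held in every alternative run in both and averaged 7.943 CPM with TAK-981 and 8.735 with the combination, against 2.663 with venetoclax and 2.624 with vehicle. HSPA4L, a chaperone gene, fell by 1.00 in the combination against venetoclax (adjusted p = 0.000393), a call that held in every alternative run. It rose by 0.63 with venetoclax against vehicle (adjusted p = 0.00615), a call lost without vehicle replicate 1 and in the 4 libraries alone. SLC38A2 was called lower in the combination, at 281.5 CPM, than with vehicle, at 487 CPM, and that call held in every alternative run. The fourth calcium-regulated family member, NFATC4, had no count in any library.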

How the data were processed

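RNA of 8 KG1a libraries was sequenced as single reads, and groups were taken from the labels. Per the labels' protocols a SMART-Seq low-input kit was used, whereas the design text of the series speaks of Ribo-Zero. The authors deposited raw whole-number read counts for each gene on hg38. The submitters' processing notes list Trimmomatic, HTSeq 0.11.1, STAR 2.6.0 and edgeR. Annotation, strand setting and multi-mapped reads: not given in the sources used here. The 5 genes, the gene lists and the tests were chosen with earlier results of these data known.

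Counts were tested with edgeR 4.0.16 (R 4.3.3, limma 3.58.1): TMM scaling, filterByExpr by group (12843 of 25168 genes), robust quasi-likelihood F tests in 1 fit over 8 libraries, two-sided. P-values were adjusted by Benjamini-Hochberg over all 12843 genes, with 0.05 as threshold, and are edgeR's where no other tool is named. An SE was taken as |log2 fold change| divided by the root of F. CPM use TMM library sizes, and CPM per kb divide by the length given in the table. Likeness is Pearson's r on log2 CPM with a prior count of 2, among genes of at least 1 CPM. Named genes were the 5 genes, up to 4 called genes per list and comparison with the smallest p, the most alike genes and the 3 nearest tested genes on each side. FKBP1A, STIM2, ITPR2, MEF2A and MEF2C in the combination against venetoclax, the marker genes, and the genes named for having no count, fall outside this rule and were added after their values were seen. Tests of NFATC1 in the combination against venetoclax and of the 5 genes' interactions were run as planned but are not given, since the genes were chosen on these libraries. Some single-gene values are not reported here. The edgeR test was checked on simulated counts for the combination against venetoclax. It found 33 of 100 genes set to 1.5-fold, 72 of 100 set to 2-fold and 8 false calls among 12843 genes. The simulation gave each gene the same spread in every group and changed few genes. In the data the venetoclax libraries varied more and 39.6% of all genes were called, so these rates may not carry over. Alternatives were RLE scaling, no filter, a mean of at least 1 CPM, a replicate block, each library left out, only the libraries compared, both venetoclax libraries left out, DESeq2 1.42.0 and limma-voom.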

Additional observations from a re-analysis of the deposited data

How the results depend on the processing

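NFATC1, given with no test, ran from 6.65 to 6.93 in the combination against venetoclax over 15 alternatives, and RCAN1 kept its direction and call in all 15 (0.59 to 0.75). RCAN1 (0.87 to 0.95) and NFATC2 (-0.60 to -0.49) kept theirs against vehicle in all 16. In a fit of the compared libraries alone, the log2 fold changes in the combination against venetoclax were -0.34 for NFATC2 and 0.43 for NFATC3, and neither was called. That fit gave -1.29 for NFATC1 with venetoclax against vehicle (0 of 5 called; -1.23 and 0 called with limma-voom), 0.24 for NFATC3 in the combination against vehicle, and -0.30, -0.33 and 0.30 for NFATC1, NFAT5 and RCAN1 in the combination against TAK-981 (3 of 5 called). Without both venetoclax libraries the last 3 were -0.30, -0.33 and 0.30 (3 called) and NFATC3 against vehicle was 0.24. The cause was not tested.

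With 1 library left out, the lone library of its group was assumed to vary like the other groups. Which genes were called in the combination against venetoclax, venetoclax against vehicle and the combination against TAK-981 changed with the library left out. NFATC2 ran from -0.57 to -0.46 in TAK-981 against vehicle. In the combination against venetoclax NFATC2 ran from -0.46 to -0.34, NFATC3 from 0.30 to 0.45, NFAT5 from 0.00015 to 0.56 and MBP from -0.010 to 0.16. With venetoclax against vehicle NFATC1 ran from -1.46 to -1.06, NFAT5 from -0.46 to 0.10 (0.10 without venetoclax replicate 2 and 0.02 without vehicle replicate 1) and RCAN1 from 0.16 to 0.32. In the combination against TAK-981 NFATC1 ran from -0.41 to -0.19, NFAT5 from -0.41 to -0.26 and RCAN1 from 0.24 to 0.35. Against vehicle the combination gave 0.22 to 0.25 for NFATC3 and -0.058 to 0.28 for NFAT5. The interaction ran from -0.075 to 0.081 for NFATC3, -0.44 to 0.13 for NFAT5 and -0.030 to 0.12 for RCAN1.

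Replicate numbers share no labelled batch, and replicate differences of the groups correlated at -0.00949 to 0.207. The replicate block changed no call of the 5 genes and moved calls over all genes in TAK-981 against vehicle to 1739, against 1562 without it. Calls over all genes depended on single libraries: over all alternatives they ran from 336 to 4096 in TAK-981 against vehicle, 2386 to 7204 in the combination against venetoclax, 200 to 5360 with venetoclax against vehicle, 65 to 3746 in the combination against TAK-981 and 1431 to 6152 in the combination against vehicle. With 10 to 43 reads of NFATC1 in libraries without TAK-981, its fold changes carry counting error.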
